A study of Mus musculus with 23 samples.

Results

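Livers of mice from the second and the third round of particle inhalation were compared gene by gene, with the inhaled material held in the model, to see which transcripts differed between rounds of the same experiment. The rounds were read from the exposure date that the labels give each mouse, which placed 12 arrays in round 2 and 7 in round 3. These were 19 of the 23 arrays of the series, and the other 4 belonged to round 1. All animals were female C57BL/6 mice, labelled as 12-13 weeks old, that breathed filtered air, carbon black (CB, Printex 90) or diesel exhaust particles (DEP, a NIST standard reference material) at 20 mg/m3 for 90 min on consecutive days. Air, CB and DEP mice numbered 4, 6 and 2 in round 2, and 2, 1 and 4 in round 3. The labels and the study's methods do not give the same age, interval before killing or RNA isolation kit. Labelled whole liver RNA (Cy5) of 1 mouse was hybridised on each array together with a commercial pool of mouse RNA (Cy3) that served as the common reference, and the dyes were never swapped. A value is therefore the log2 of liver signal over reference signal, and a difference is that log2 ratio in round 3 minus the one in round 2.

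Liver transcripts follow the hour of the day, the last meal and circulating stress hormones. The core clock genes drive rhythmic output genes, feeding switches the liver between gluconeogenesis and lipid synthesis, glucocorticoids and heat shock factors mark stress, and acute phase proteins such as serum amyloid A mark inflammation elsewhere in the body. Each of these can shift when animals are handled on another day, with no particle involved. Arrays too may differ from one hybridisation set to the next. Here the serial numbers of the arrays fall into 5 runs of consecutive numbers, called array sets A to E below. Set A held 5 arrays, all of round 3. The other 2 round 3 arrays, of DEP mice 51 and 57, lay in sets C and D beside round 2 arrays. Each round was run once, round 2 in January and round 3 in March, and each of the 4 exposure days belonged to a single round. Round and time of exposure therefore cannot be told apart, and for most round 3 mice array set cannot either. The labels give the replicates as separate mice, so that p-values measure the spread between mice.

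No gene passed the test between the rounds. With limma, 0 of 18688 features (0%) passed an adjusted p of 0.05, and the smallest adjusted p was 0.417. Without adjustment, p lay under 0.05 for 1440 features, 593 of them higher and 847 lower in round 3, where 934.4 are expected at that threshold if nothing differs. Most differences were small. The median difference was -0.02 with a median standard error (SE) of 0.13, 168 features exceeded 1.5-fold and 25 exceeded 2-fold. For 97.7% of the features the 95% confidence interval lay within 2-fold either way, and for 86.4% within 1.5-fold. Counted over genes, with the brightest feature per gene, 7.83% of 16851 genes had an unadjusted p under 0.05. Of all 16851 genes, 9326 had a difference below 0 and 7518 one above 0. These values are the background for the counts of the gene lists below. In none of those genes were the 12 and the 7 mice fully separated. All genes named below failed the adjusted test in the full comparison.

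**Figure D1:**
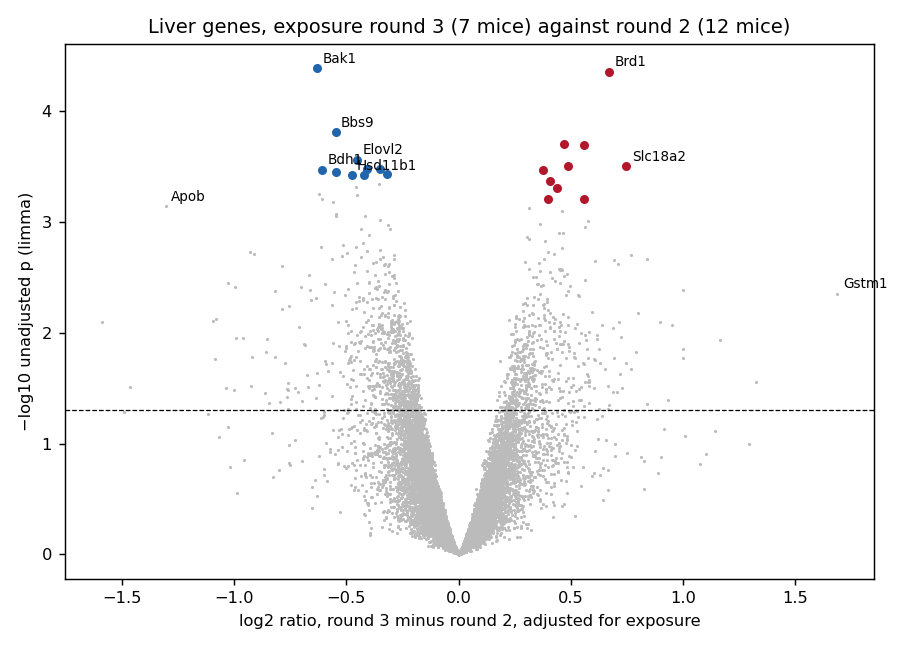
Each point is 1 of 16851 liver genes, with the log2 difference (round 3 minus round 2, adjusted for exposure) on the x axis and −log10 of the unadjusted limma p on the y axis. Red and blue points are the 10 higher and the 10 lower genes with the smallest p, and the dashed line is p = 0.05; most genes lie within 1 log2 unit of 0 and none passed adjustment.

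The gene with the smallest p on the higher side was Brd1, a scaffold of histone acetyltransferase complexes. Its log2 ratio ran from -1.81 to -0.77 with a median of -1.31 in round 2, and from -1.13 to -0.05 with a median of -0.81 in round 3. Round 3 mice were mostly higher, but 4 of them lay inside the round 2 range. The difference was 0.67 ± 0.13 (SE; limma adjusted p = 0.417). Pigt, a subunit of the GPI transamidase that anchors proteins to the cell surface, spanned 0.34 to 1.10 in round 2 and 0.83 to 1.38 in round 3, a difference of 0.44. The kinase gene Sik3 differed by 0.48, from a round 2 median of 1.40 to a round 3 median of 1.75. Rcan2, a regulator of calcineurin, lay between -0.27 and 0.11 in round 2 and between -0.07 and 0.44 in round 3. DEP mouse 57 alone kept the Rcan2 ranges from separating. The histone variant gene H2az1 (0.41), Ubald2 (0.40), 9530053A07Rik (0.56), the nicotinic receptor subunit gene Chrna6 (0.56), Zc3hav1l (0.47) and the vesicular monoamine transporter gene Slc18a2 (0.75) completed the 10. The limma adjusted p values of these genes lay between 0.417 and 0.447. Without the single CB mouse of round 3, Chrna6 dropped to 0.30.

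On the lower side the smallest p belonged to Bak1, which encodes a pore-forming protein of mitochondrial apoptosis. Its log2 ratio was -1.32 to -0.67 (median -0.97) in round 2 and -1.81 to -0.98 (median -1.62) in round 3. All 5 mice on set A arrays were at or below -1.54, beneath every round 2 mouse, whereas DEP mice 51 and 57 were at -1.02 and -0.98, near the round 2 median. The full difference was -0.63 ± 0.12 (SE; limma adjusted p = 0.417). Bbs9, a component of the ciliary BBSome, ran from -0.04 to 0.59 in round 2 and from -0.63 to 0.00 in round 3. Only 2 round 2 mice, an air mouse and a DEP mouse, reached into the round 3 range, and the difference was -0.55. Elovl2, an elongase of polyunsaturated fatty acids, had medians of 4.97 and 4.85 (difference -0.45). Hsd11b1, which regenerates active glucocorticoid in liver, was 5.67 to 6.03 in round 2 and 4.96 to 5.78 in round 3 (difference -0.48). Its Cy5 spot was saturated on 7 round 2 and 4 round 3 arrays, so these ratios are compressed. Bdh1, the ketone body enzyme 3-hydroxybutyrate dehydrogenase, differed by -0.61. The remaining genes were Atxn7l3b (-0.55), Inpp5f (-0.42), the vesicle tethering gene Trappc6b (-0.41), the proteasome assembly gene Psmd5 (-0.35) and the ribosomal RNA processing gene Utp4 (-0.32).

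**Figure D2:**
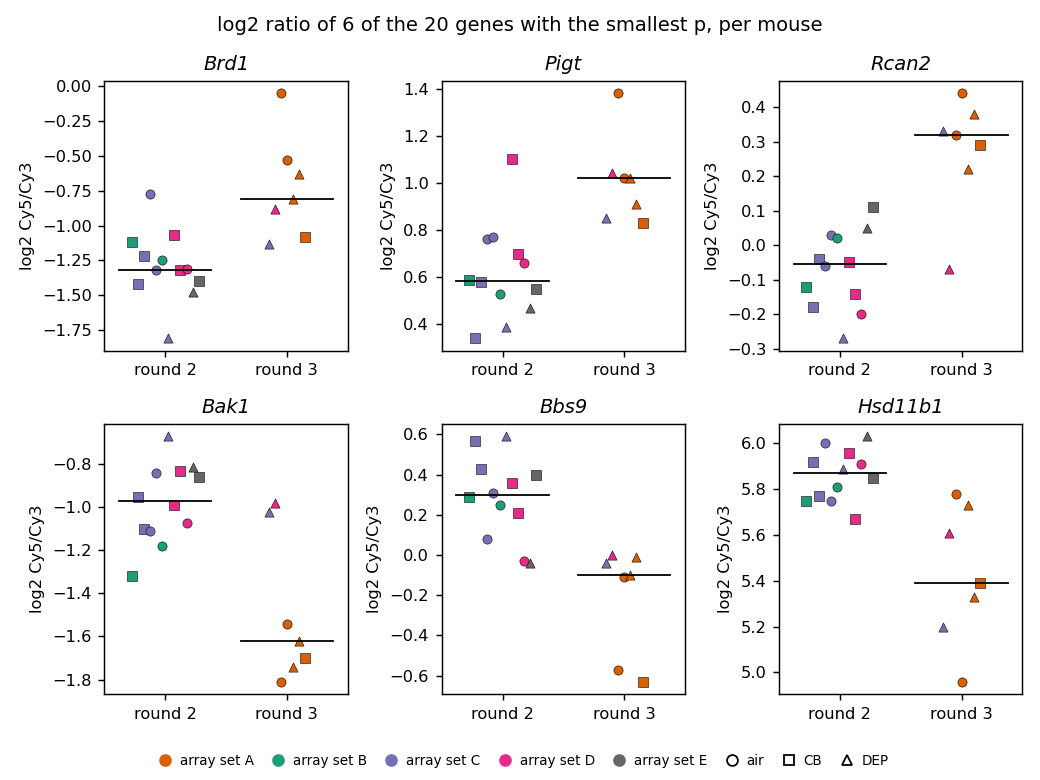
log2 Cy5/Cy3 (y axis) of 6 leading genes in each of 12 round 2 and 7 round 3 mice (x axis), with the median as a line, colour for the array set and shape for the exposure. For Bak1 the 5 set A mice lie between -1.81 and -1.54 while both other round 3 mice lie near -1.

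The rounds were then compared in each channel alone, since the reference RNA was the same on every array and any difference in it does not come from a mouse. A channel alone also carries the spot and the hybridisation of its array, which were not separated. The channel values therefore do not decide whether a difference in the ratio is one of liver RNA. After quantile normalization of the Cy3 signals, 0 features passed the adjusted test, but 2908 (15.6%) had an unadjusted p under 0.05 in limma. In the Cy5 channel 0 passed and 2254 (12.1%) lay under 0.05. On the log2 scale of each channel, the reference signal of Brd1 differed by -0.55 and its liver signal by 0.04. For Sik3 the reference differed by -0.62 and the liver by -0.12, and for Pigt by -0.48 and -0.09. Bbs9 showed the opposite sign in the reference, 0.36, with -0.20 in the liver channel. By contrast, Rcan2 (liver 0.25, reference -0.12), H2az1 (0.34, -0.07), Utp4 (-0.33, -0.01) and Psmd5 (-0.31, 0.04) differed mainly in the liver channel. Among the 20 genes, 6 had a larger difference in the reference than in the liver, and 8 had an unadjusted p under 0.05 in the reference.

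Gstm1, a glutathione transferase that is induced by NRF2, had the largest difference of all genes, 1.69 ± 0.53 (SE; limma adjusted p = 0.531). Its log2 ratios ran from -0.66 to 2.44 (median 0.61) in round 2 and from 1.61 to 3.05 (median 2.53) in round 3. The Cy5 spot was saturated on 5 round 2 and 4 round 3 arrays. On 6 round 2 arrays it gave 187 to 291 units in Cy5 and 164 to 300 in Cy3, both near the foot of the signal range, while on the other 6 the reference gave 5753 to 12656 units. Gstm1 is among the last 100 features by number. Over those features the Cy3 signals of the same 6 arrays correlated with the median array at only 0.09 to 0.617, as did those of the round 3 CB mouse at 0.682, whereas the remaining arrays reached 0.784 to 0.993. Over the other 224 blocks of 100 features, each array's median correlation was 0.969 to 0.994. Single blocks fell lower, to 0.434 for CB mouse 835052 and 0.503 for air mouse 54, whose last 100 features were at 0.941. Zc3hav1l and Slc18a2 belong to the same 100 features. When those 7 arrays were left out, the difference became 0.66 ± 0.31 for Gstm1, 0.18 ± 0.12 for Zc3hav1l and 0.17 ± 0.15 for Slc18a2 (SE; adjusted p = 0.864, 0.866 and 0.906 in limma).

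**Figure D3:**
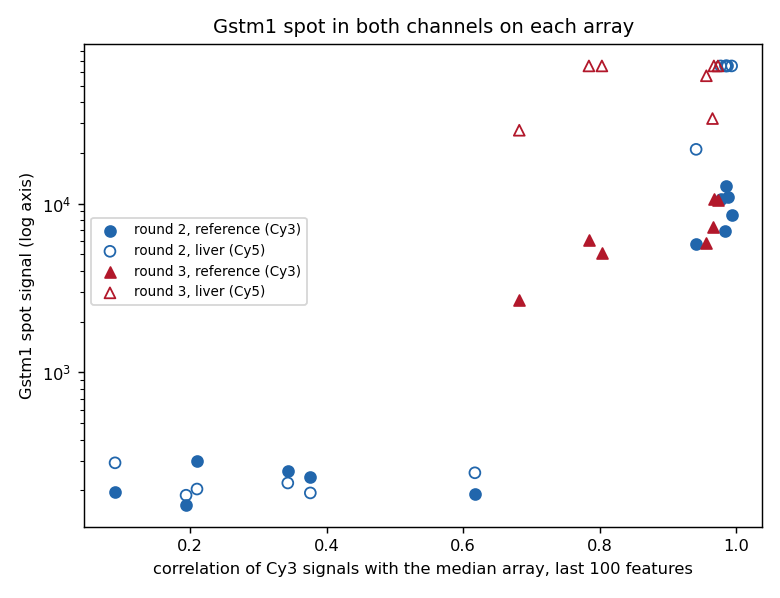
Spot signal of Gstm1 (y axis, log scale) against the correlation of an array's Cy3 signals with the median array over the last 100 features (x axis), with filled symbols for the reference and open symbols for the liver. On 6 round 2 arrays both channels lie at 164 to 300 units, and on these the correlation is 0.617 or lower.

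None of the core clock genes passed. Of 14 genes 13 were measured, and 1 in each direction had an unadjusted p under 0.05 (15.4%, against 7.83% of all genes); their median difference was -0.04. The negative regulator Per2 had log2 ratios of 0.91 to 1.98 (median 1.68) in round 2 and 0.44 to 1.78 (median 1.41) in round 3, a difference of -0.22 ± 0.19 (SE). Its partner Cry1 ran from -0.22 to 0.23 in round 2 and from -0.40 to -0.09 in round 3 (-0.19). All 7 round 3 mice were below 0 for Cry1, 3 of them below every round 2 mouse and 4 within the round 2 range. Without air mouse 835433, the lowest, the Per2 difference was -0.03, and without DEP mouse 56 it was -0.40. Among the activators Arntl (Bmal1) differed by -0.07 and Npas2 by -0.24, which became 0.08 and -0.08 without DEP mouse 56, the highest for both. Without DEP mouse 444 they were -0.16 and -0.37. The repressor Nr1d1 (Rev-erb alpha) differed by 0.25, with a reference difference of -0.42. Per1 differed by 0.01, but DEP mouse 51 had a ratio of 1.37 where the other round 3 mice had -0.31 to 0.32. The clock kinase gene Csnk1e differed by 0.36, and by 0.15 without the CB mouse, whose ratio was -1.47 against -2.63 to -2.46 in the others. The other 6 differences lay between -0.05 and 0.04. Some of these covered opposite values within round 3. With set A as round 3, Clock differed by 0.10, Nr1d2 by -0.18, Rora by -0.04, Per3 by -0.05, Csnk1d by -0.07 and Cry2 by 0.02. With DEP mice 51 and 57 as round 3, in the same order, they differed by -0.34, 0.46, 0.40, 0.04, 0.01 and 0.16. The latter fit sets these mice against DEP mice 56 and 444 only. No 95% confidence interval of the full comparison in this list reached beyond 0.621 in either direction.

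Clock output genes, whose rhythms follow the core clock, had a median near 0 as well (16 genes; 0 passed; 2 lower and 0 higher at an unadjusted p under 0.05; median -0.01). Dbp, a transcription factor with a steep daily rhythm, had ratios of -0.37 to 1.84 in round 2 and 1.14 to 1.81 in round 3. Its difference of 0.36 rested on DEP mouse 56, the -0.37, and was 0.01 without that mouse, and 0.55 without the round 3 CB mouse. Hlf, a relative of Dbp, lay between 1.62 and 2.04 on the 5 set A arrays but at 3.27 and 2.96 in DEP mice 51 and 57, with 1.76 to 3.18 in round 2 (difference -0.49). Rgs16, a feeding-responsive signalling regulator, was highest of all mice in the same DEP mice, 3.98 and 4.07, against 0.52 to 3.38 in round 2. The median of the list was -0.13 with set A as round 3 and 0.49 with DEP mice 51 and 57. With exposure in the model, the 0.49 sets them against DEP mice 56 and 444 only. As the median over the list relative to each gene's round 2 mean, DEP mice 56 and 444 were at -0.47 and 0.17. DEP mice 51 and 57 were at 0.26 and 0.27. The round difference of Rgs16, 0.65 ± 0.45 (SE), became 0.38 without DEP mouse 56. Alas1, the first enzyme of heme synthesis, differed by -0.31.

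**Figure D4:**
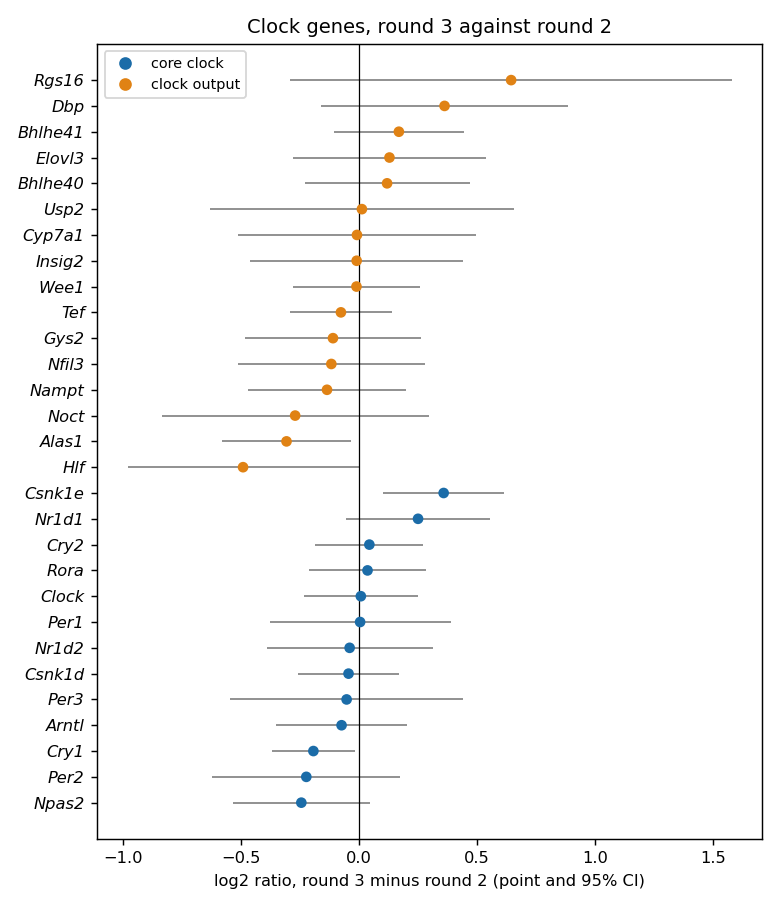
Difference in log2 ratio between round 3 and round 2 (x axis, point with 95% confidence interval from limma) for 13 core clock genes and 16 clock output genes (y axis). Only Csnk1e, Cry1, Alas1 and Hlf have intervals that leave out 0, none after adjustment.

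Stress genes were examined in 4 lists. For glucocorticoid-responsive genes (16 measured) 0 passed and 0 had an unadjusted p under 0.05, with a median of -0.07. Dusp1, a rapidly induced phosphatase gene, differed by -0.21 ± 0.16 (SE), and by -0.03 without the round 3 CB mouse. Of 19 immediate early genes 0 passed, and 2 were higher at an unadjusted p under 0.05. These were Nr4a1 (0.45, with -0.18 in the liver channel and -0.44 in the reference) and Egr1 (0.63, and 0.32 without the round 3 CB mouse). Cytosolic heat shock genes stood lowest of these lists, with a median of -0.21 and 14 of 15 below 0. None passed, while 6 (40%) had an unadjusted p under 0.05, all lower in round 3, beside 7.83% of all genes. Hsph1, an HSP110 chaperone, ran from -0.51 to 0.30 in round 2 and from -1.08 to 0.29 in round 3 (difference -0.49 ± 0.19, SE). Its liver signal differed by -0.07 and its reference signal by 0.43. The HSP90 partner genes Chordc1 and Fkbp4 differed by -0.41 and -0.33, and the HSP40 gene Dnaja1 by -0.26. Dnaja1 lay between 1.15 and 1.30 in every round 3 mouse and between 0.97 and 1.71 in round 2. The list's median was -0.25 with set A as round 3 and -0.07 with DEP mice 51 and 57 as round 3. The latter fit sets them against DEP mice 56 and 444 only. Of 19 endoplasmic reticulum chaperone genes 0 passed and 16 were below 0 (median -0.13), and the HSP40 gene Dnajb11 (-0.39) and Sdf2l1 (-0.56) had the smallest p.

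Of the genes of the fed and fasted state, the fasting and lipogenesis lists had medians near 0. The cholesterol synthesis and fat oxidation lists lay further from it. Among 12 fasting and gluconeogenesis genes 0 passed and 0 had an unadjusted p under 0.05 (median 0.02). The glucose-6-phosphatase gene G6pc differed by -0.60 ± 0.29 and Angptl4, an inhibitor of lipoprotein lipase, by 0.41 ± 0.21 (SE). Angptl4 was 0.17 without DEP mouse 56 and 0.62 without the round 3 CB mouse. Lipogenesis genes (17) likewise had 0 passing and 0 at an unadjusted p under 0.05, with a median of -0.01. Fasn, the fatty acid synthase gene, differed by 0.26 and its activator Srebf1 by -0.35. Leaving out 1 mouse moved Fasn between 0.08 (without DEP mouse 57) and 0.42 (without DEP mouse 835434), with 0.09 without DEP mouse 56 and 0.39 without DEP mouse 444, and moved Srebf1 to -0.22 (without DEP mouse 835434). The near-zero median covered opposite values within round 3. As the median over the list, each gene taken relative to its round 2 mean, DEP mice 51 and 57 had levels of 0.20 and 0.61, the 5 set A mice -0.73 to -0.02, and the round 2 mice -0.63 to 0.35. Cholesterol synthesis genes (19) had a median of 0.19 with 14 above 0, and 0 passed. Hsd17b7 differed by 0.32 and the isomerase gene Idi1 by 0.53. In the liver channel they differed by 0.08 and 0.14, and in the reference by -0.44 and -0.46. Both were far lower in DEP mouse 835434 (1.75 and 1.29) than in the other round 3 mice, and Idi1 was 0.28 without DEP mouse 56. Of 24 PPAR-alpha and fat oxidation genes 0 passed and 18 were below 0 (median -0.14).

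Inflammation and immune genes were next. Positive acute phase proteins, the secreted products that liver releases during inflammation, had 0 of 28 passing and a median of -0.18. At an unadjusted p under 0.05, 1 was higher and 6 were lower (25%, against 7.83% of all genes). In the liver channel alone their median was -0.02, and in the reference 0.06. The C-reactive protein gene Crp was 2.53 to 3.87 (median 2.98) in round 2 and 2.20 to 3.51 (median 2.72) in round 3, and 4 of the 7 round 3 mice lay within the round 2 range (difference -0.51 ± 0.21, SE). The regulator Cebpb differed by 0.45, and by 0.68 without the round 3 CB mouse. Of the lower members, Hpx had a saturated Cy5 spot on all 7 round 3 arrays, which gives only a bound. Among the genes that the study names, the serum amyloid P gene Apcs differed by -0.32 ± 0.21, Saa1 by -0.14 ± 0.17, Saa3 by -0.31 ± 0.56 and the trafficking gene Tmed3 by -0.12 ± 0.09 (SE). Saa3 varied more within round 2, from -1.18 to 2.52, than in round 3, from -0.91 to 0.92. Leaving out 1 mouse moved the Saa3 difference between -0.65 (without DEP mouse 56) and 0.17 (without DEP mouse 444), and Saa1 to 0.03 without the round 3 CB mouse. Tmed3 was -0.08 without DEP mouse 444 and also without air mouse 835433. The Cy5 spot of Apoe was saturated on every array of both rounds.

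Of 21 cytokine and NF-kB feedback genes 0 passed and 2 were higher at an unadjusted p under 0.05. The neutrophil chemoattractant gene Cxcl2 differed by 0.38 and Ccl4, a macrophage chemokine gene, by 0.64. Ccl4 was 0.28 without the round 3 CB mouse, and its reference signal differed by -0.86. Interferon-stimulated genes (31) had a median of -0.02 and 0 passing. Isg15, a ubiquitin-like interferon product, had the widest difference of the list, -0.77 ± 0.30 (SE). A single round 2 array carried it, since DEP mouse 56 had a ratio of 1.12, the other round 2 mice -1.89 to -1.03 and round 3 mice -2.55 to -1.42. Without that mouse the difference was -0.27. Isg15 is among the last 1000 features by number. Over those features the array of DEP mouse 56 correlated with the median array at 0.814, the other arrays of both rounds at 0.817 to 0.984. Whether the 1.12 came from the mouse or the array was not tested. Leaving out the 7 arrays with low correlation over the last 100 features, DEP mouse 56 among them, gave -0.14. Of 25 MHC genes 0 passed. At an unadjusted p under 0.05, 3 were higher and 0 lower (12%, against 7.83% of all genes), H2-Ab1 among them with 0.39. Complement and coagulation genes (24) had 0 passing, a median of -0.22 and 22 below 0, beside 9326 of all 16851 genes. In the liver channel alone their median was -0.02, and in the reference 0.04. Mbl2, a lectin that starts complement activation, differed by -0.96 ± 0.34 (SE) and by -0.27 without the CB mouse, whose ratio of 0.72 lay below the 3.14 to 4.66 of the other round 3 mice.

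In the log2 ratio, the differences of hepatocyte genes tended to lie below 0. Hepatocyte markers showed the tissue to be liver, with 3 of 10 saturated in Cy5 on every array and the other 7 at a median log2 ratio of 5.17 in the round 1 arrays. Of those 7 none passed, and 3 were lower at an unadjusted p under 0.05 (median -0.27), beside 784 of all 16851 genes. In direction 6 were below 0 and 1 above, by 0.89. Apob, the apolipoprotein of hepatic lipoproteins, ran from 4.66 to 6.18 (median 5.08) in round 2 and from 1.77 to 5.94 (median 4.76) in round 3. The 1.77 was the CB mouse, without which the difference of -1.31 became -0.70. In the liver channel Apob differed by -0.23, and in the reference by 0.78. The urea cycle gene Cps1 differed by -0.79 and the transthyretin gene Ttr by -0.53. The pericentral gene Glul, glutamine synthetase, was 3.47 to 4.27 in round 2 and 3.12 to 3.88 in round 3 (difference -0.55 ± 0.14, SE; limma adjusted p = 0.492). Cytochrome P450 genes (70) had 0 passing and a median of -0.13. At an unadjusted p under 0.05, 1 was higher and 9 were lower (14.3%, against 7.83% of all genes). Cyp2c70, which makes muricholic acid in mice, differed by -0.46 with a Cy5 spot saturated on 6 round 2 and 4 round 3 arrays, Cyp4a12a by -0.36, and Cyp2c55 by 0.31. Of 19 bile acid synthesis and transport genes 0 passed and 17 were below 0 (median -0.21), beside 9326 of all 16851 genes. The uptake transporter gene Slco1b2 differed by -0.48, with a Cy5 spot saturated on 10 round 2 and 6 round 3 arrays. Amino acid and urea metabolism (17 genes, median -0.11), periportal genes (8, -0.05), pericentral genes (11, -0.08), female-biased genes (5, -0.18) and male-biased genes (7, -0.26) had 0 passing each. In the liver channel alone, medians were -0.23 for hepatocyte markers, 0.02 for P450 genes and -0.07 for bile acid genes. They were 0.18 for amino acid and urea metabolism, 0.11 for periportal, -0.07 for pericentral, 0.05 for female-biased and -0.09 for male-biased genes. In the reference channel, in the same order, they were -0.05, 0.05, 0.08, 0.11, 0.07, -0.11, -0.02 and -0.06.

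The direction of those lists went with the level of the genes. Genes were binned by their log2 ratio in the 4 round 1 arrays, which took no part in the difference. The 454 genes with a ratio over 3 had a median difference of -0.19, and 82.2% of them were below 0. In that bin 17.6% were lower and 0.22% higher at an unadjusted p under 0.05. The 13184 genes between -1 and 1 had a median of -0.01, with 52.9% below 0. The order held with set A alone as round 3 and not with DEP mice 51 and 57 as round 3. With set A the median of the genes over 3 was -0.26 and that of the 357 genes between 2 and 3 was -0.21. With DEP mice 51 and 57 they were 0.19 and 0.32. The latter fit sets them against DEP mice 56 and 444 only, so both settings differ in their round 2 mice as well. Scaling every array to the same slope against round 1 brought the median of the first bin to -0.07, that of complement and coagulation to -0.11 and that of acute phase proteins to -0.07, while heat shock stayed at -0.23. The slopes overlapped (0.929 to 1.106 in round 2 and 0.885 to 1.085 in round 3; two-sided exact permutation test within exposure groups, p = 0.417). So did the medians of either channel and the numbers of absent or saturated spots (6 array measures, exact p = 0.145 to 0.789, Benjamini-Hochberg adjusted p = 0.538 to 0.789; the smallest exact p that the design allows is 0.000635). The part of array scale in the lower liver genes was not tested.

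Markers of other cells were measured beside these. Fewer cells of a type and less RNA per cell cannot be told apart in whole liver. All 10 Kupffer cell and macrophage markers were below 0 (median -0.33), as were 9326 of all 16851 genes. Of these markers 0 passed and 1 had an unadjusted p under 0.05. This was C1qa, the complement subunit that Kupffer cells secrete, at 4.45 to 5.49 in round 2 and 3.99 to 5.29 in round 3 (difference -0.40). The marker list's level relative to round 2 was -0.52 to -0.26 on the 5 set A arrays and 0.36 and 0.40 in DEP mice 51 and 57, with -0.43 to 0.48 in round 2. Lymphocyte (12 genes, median 0.10), neutrophil (11, 0.07), erythroid (6, 0.02), endothelial (13, 0.05), stellate cell (9, -0.08), bile duct (4, -0.03), adipocyte (5, -0.10), skeletal muscle (8, -0.004) and pancreatic acinar markers (16, 0.03) had 0 passing each. Acinar markers reached a level of 0.39 in DEP mouse 51, where the other round 3 mice had at most 0.11.

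Housekeeping lists were measured too. Of 58 cytoplasmic ribosomal protein genes 53 were below 0 (median -0.16), beside 9326 of all 16851 genes. Of these 58, 0 passed and only 1 (1.72%) had an unadjusted p under 0.05. Mitochondrial ribosomal protein genes (75, median -0.06), oxidative phosphorylation genes (83, -0.04), proteasome genes (40, -0.06), cell cycle genes (24, 0.02), hypoxia genes (11, -0.12) and iron genes (9, 0.05) had 0 passing as well. Genes that xenobiotics induce had medians of -0.02 for 7 AhR genes and 0.01 for 14 NRF2 targets. Ahrr, the AhR repressor gene, differed by -0.32, with a reference difference of 0.23, and by -0.17 without DEP mouse 56. The single major urinary protein gene differed by 0.15.

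The 2 parts of round 3 were then set against round 2 one at a time. For the 5 set A arrays, array set and round cannot be told apart, while DEP mice 51 and 57 shared their sets with round 2 arrays. Exposure stayed in the model. Set A was thus compared with round 2 mice of all exposures. DEP mice 51 and 57 were compared only with DEP mice 56 and 444, the DEP mice of round 2. With set A as round 3, 18 features (0.0963%) passed in limma, 4 higher and 14 lower, among them Bak1 (-0.74), Bdh1 (-0.72) and Atxn7l3b (-0.64). Others of the 18, chosen here after their values were seen, were the peroxisomal coenzyme A hydrolase gene Nudt7, the cysteine dioxygenase gene Cdo1 and the urea cycle activator gene Nags. Nudt7 ratios were 2.50 to 3.08 on set A arrays, below all round 2 mice (3.5 to 4.32), but 4.66 and 4.41 in DEP mice 51 and 57, above all of them. For Nags the corresponding values were 4.34 to 4.76, 4.57 to 5.52, and 5.58 and 5.56. Cdo1 was 5.17 to 5.41 on set A arrays, 3.76 to 4.66 in round 2, and 3.46 and 5.27 in the DEP mice. Over all 7 mice the differences of Nudt7 (-0.69), Nags (-0.42) and Cdo1 (0.71) did not pass (limma adjusted p = 0.54, 0.574 and 0.531), but Cdo1 did without DEP mouse 51 (0.90, limma adjusted p = 0.0234).

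With DEP mice 51 and 57 as round 3, against DEP mice 56 and 444, 0 features passed and 1705 had an unadjusted p under 0.05. List medians changed sign between both settings, from -0.20 with set A to 0.69 with DEP mice 51 and 57 for lipogenesis, from -0.35 to 0.22 for complement and coagulation, from -0.42 to 0.18 for Kupffer cell markers and from -0.12 to 0.22 for interferon-stimulated genes. Within sets C and D alone 25 features (0.134%) passed, and 15 of them were among the last 1000 features by number, which held 4.33% of the features tested. Within CB mice alone, with 1 mouse in round 3, 199 (1.06%) passed, and that comparison takes the lone mouse to vary like the 6 others. In air mice and in DEP mice 0 passed, with 1409 and 451 at an unadjusted p under 0.05.

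**Figure D5:**
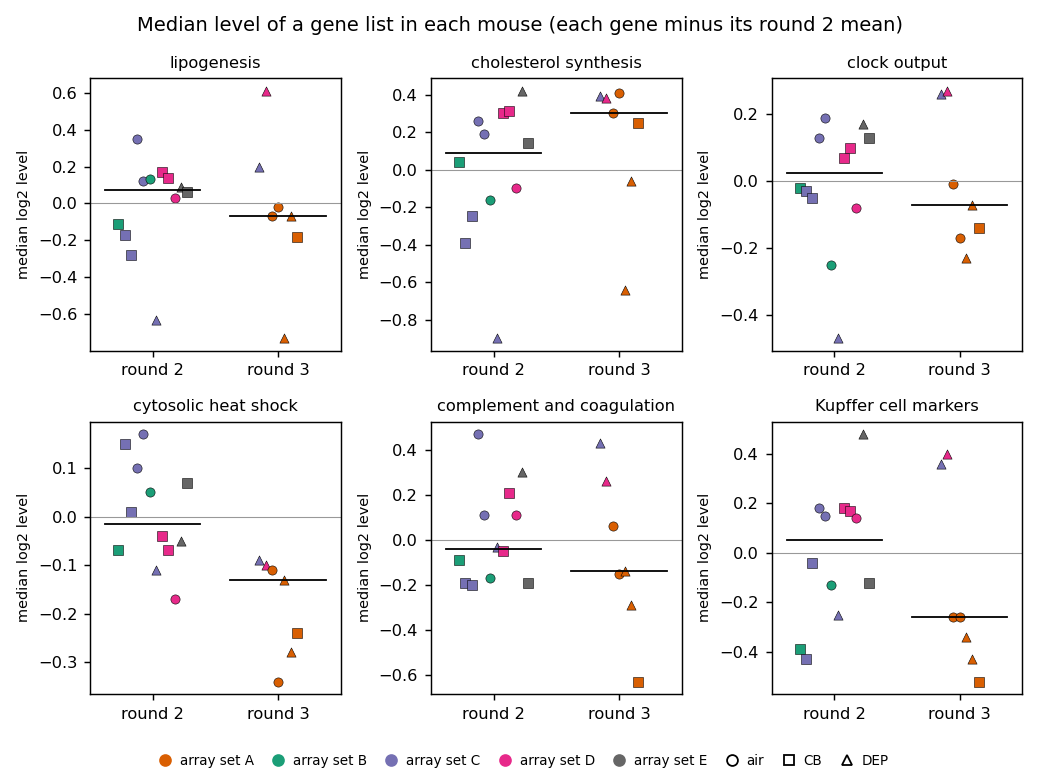
Level of 6 gene lists in each mouse (y axis: median over the list's genes of log2 ratio minus the gene's round 2 mean; x axis: round), with the group median as a line, colour for the array set and shape for the exposure. For lipogenesis, complement and Kupffer cell markers, DEP mice 51 and 57 lie above every set A mouse.

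Over all features, exposure round took 7.23% of the variance left after exposure, where 1 arbitrary contrast takes 6.25% on average, and array set took 31.8%, where 4 contrasts take 25%. After array set, round took 11.9% of what was left, where 1 contrast takes 8.33%. A difference between the rounds in the response to particles was tested as an interaction of particle (CB or DEP against air) and round. There 0 features passed in limma, and 971 had an unadjusted p under 0.05. The 4 mice of round 1 were compared in a fit of all 23 arrays. Against round 2, 0 features passed (845 at an unadjusted p under 0.05), and against round 3, 0 passed (1424).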

How the data were processed

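Liver RNA of 23 mice was hybridised on 2-colour oligonucleotide arrays. The authors quantified the spots, and the deposited intensity values are median signals per spot and channel with no background subtracted. The deposited log2 ratios were lowess-normalized within each array by the authors in R (2.4.1 per the submitters' processing notes), who marked spots under a limit set from negative controls as absent.

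Here the deposited signals were normalized by loess within each array and log2 ratios of 19 arrays were fitted in limma 3.58.1 (R 4.3.3) with terms for exposure and round, empirical Bayes moderation and Benjamini-Hochberg adjustment at 0.05. Of 22575 features, 18688 had a listed gene and were tested (30 of them list several genes). Symbols were updated by Entrez identifier for 18445. Per gene the brightest feature stood for the gene, and genes saturated in Cy5 on every array were left out of gene counts. Each channel alone was quantile-normalized and fitted likewise. The gene lists (43) were described by counts and medians. Named genes were the 10 per direction with the smallest p (none passed), up to 4 members per list with the smallest p, the core clock genes and the genes that the study names; the text prints part of these. The members and lists were chosen with earlier results of these data known. The scripts were tested on simulated data. Spots at the scanner maximum have only a bound, and the number of arrays limits the precision. Alternatives covered normalization, filters, saturation, array set, exposure day, array weights, exposure groups and each mouse left out. The rescaling to 1 slope and both alternatives on the last 100 features were chosen after seeing the data.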

Additional observations from a re-analysis of the deposited data

Results flagged for a closer look

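In round 3, the 7 mice of which are few enough for a test of single extreme values, 12 values lay apart from the other mice by more than Dixon's 95% limit. Chance alone marks about 1 in 20 groups, and over all 16851 genes 1333 (7.91%) were marked, 290 of them for DEP mouse 835435 and 271 for CB mouse 835436. The CB mouse was apart for 6 of the named genes. Its log2 ratios were 1.60 for Slc18a2 (other round 3 mice 0.06 to 0.49), 1.56 for Chrna6 (0.18 to 0.73), 4.25 for Elovl2 (4.72 to 5.07), -1.47 for Csnk1e (-2.63 to -2.46), 1.77 for Apob (4.37 to 5.94) and 0.72 for Mbl2 (3.14 to 4.66). It was the single CB mouse of round 3, so an effect of that mouse and one of CB in round 3 cannot be told apart.

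DEP mouse 835434 was apart for the cholesterol synthesis genes Hsd17b7 (1.75 against 2.37 to 2.84) and Idi1 (1.29 against 2.41 to 2.89). DEP mouse 51 was apart for the clock gene Per1 (1.37 against -0.31 to 0.32), and DEP mouse 57 for Rcan2 (-0.07 against 0.22 to 0.44) and for the share of absent Cy3 spots (30% against 22.2% to 25.3%). Air mouse 835432 was apart for Pigt (1.38 against 0.83 to 1.04). The causes were not tested.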

How the results depend on the processing

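Of 41 alternatives for the number of features that passed between the rounds (0), leaving out 1 mouse gave 0 to 1, and 5 others gave more than 0. These were median centring (2), array set as a fixed term (1), array set A alone as round 3 (18), array sets C and D alone (25) and CB mice alone (199), of which the 18 and the 199 shared 3. The alternatives of the channel fits and of the interaction gave 0. No paired analysis was possible because each mouse number occurs once. Over 71 genes, 2710 values kept their direction and side of the threshold, 16 passed the threshold that the full comparison missed, and 94 changed sign. In the liver channel alone these were Sik3 -0.12, Pigt -0.093, Nr1d1 -0.18, Saa1 0.25, Cyp2c70 0.024, Nr4a1 -0.18, Ccl4 -0.15, Slco1b2 0.074, Cebpb -0.45, Alas1 0.14, G6pc 0.40, Cdo1 -0.12 and Nudt7 0.028. Within array sets C and D they were Bdh1 0.082, Per2 0.95, Cry1 0.14, Nr1d1 -0.052, Csnk1e -0.075, Apcs 0.77, Tmed3 0.13, Saa1 0.038, Saa3 0.52, Apob 0.41, Fkbp4 0.19, Egr1 -0.22, Mbl2 0.61, Ccl4 -0.26, Hlf 0.80, C1qa 0.26, Srebf1 0.53, Cdo1 -0.46, Nags 0.46 and Nudt7 0.74. Dropping the exposure term gave Arntl 0.017. Air mice alone gave Arntl 0.074, Per1 -0.40, Saa1 0.043, Saa3 0.19, H2-Ab1 -0.028 and Dusp1 0.033. Leaving out the 7 arrays with low correlation over the last 100 features gave Arntl 0.069, Per1 -0.13, Saa1 0.18 and Fasn -0.13. CB mice alone gave Npas2 0.0074, Angptl4 -0.23, Cebpb -0.26, Dbp -0.22 and Ahrr 0.11. The deposited log2 ratios gave Per1 -0.042. Taking set A alone as round 3 gave Per1 -0.17. Array weights gave Per1 -0.082. With array set as a fixed term they were Per2 0.39, Apcs 0.34, Tmed3 0.12, Cyp2c55 -0.049, Fkbp4 0.037, Mbl2 0.042, Hlf 0.53, C1qa 0.14, G6pc 0.20, Srebf1 0.65, Cdo1 -0.23, Nags 0.39 and Nudt7 0.68. Without array set A they were Per2 0.38, Cry1 0.0085, Apcs 0.22, Saa1 0.0005, Ttr 0.073, Fkbp4 0.15, Egr1 -0.22, Mbl2 0.45, Ccl4 -0.060, Hlf 0.59, C1qa 0.14, Srebf1 0.15, Cdo1 -0.22, Nags 0.31 and Nudt7 0.59. DEP mice alone gave Per2 0.11, Saa1 0.0079 and Egr1 -0.083. Median centring gave Tmed3 0.024 and Saa1 0.035. Over the mice left out in turn, Arntl ran from -0.16 to 0.080, Per1 from -0.12 to 0.086, Saa1 from -0.22 to 0.026 and Saa3 from -0.65 to 0.17. The cause was not tested in any of these cases. With exposure in the model, the contrast within sets C and D rests on DEP mouse 56, the only round 2 DEP mouse there. The contrast without set A takes only DEP mice 56 and 444 as its round 2 side. Saturated Cy5 spots limit the differences of the brightest genes, and signals near the foot of the range those of the dimmest.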
